A study of Saccharomyces cerevisiae with 12 samples.

Results

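The transcripts described here come from the mitochondrial genome of budding yeast (Saccharomyces cerevisiae). They were taken as the features whose identifier begins with Q0, together with the 2 mitochondrial ribosomal RNAs, with a mean abundance above 0. Of 7033 features, 31 met the name rule, 2 of these were at 0 in every library, and the remaining 29 are the members. They comprise 8 protein-coding exon frames, 10 reading frames that lie wholly or partly in introns, the 2 rRNAs, the RNA subunit of mitochondrial RNase P (RPM1), the frame Q0255 behind COX2, and 7 other frames named only by identifier. RNA was sequenced from cultures of a W303 MATa strain in which the chromosomal copy of SCC2, a cohesin loader subunit, carried an AID* degron with 6 FLAG tags (SCC2-AID*-6FLAG-HYG) and ADH1-driven OsTIR1 was integrated at ura3-1. All strains also shared the markers can1-100, trp1-1, ade2-1 and his3-11,15 and a leu2 allele. They differed in a pRS413 HIS plasmid, which held no insert (empty_vector), SCC2-7MYC with G1242V, SCC2-7MYC with R787G, or wild-type SCC2-7MYC (WT). Each of the 4 groups had 3 libraries, made after 90 min of growth in medium without histidine and 3 h in 1 mM auxin (3-indoleacetic acid), which triggers loss of the degron-tagged protein. The labels do not say whether the libraries of a group came from separate cultures, so p-values measure only the spread between these libraries. Per the labels' growth protocol the null strain (empty_vector here) was grown in duplicate, yet 3 libraries carry its label. All 3 were used, and whether 2 of them share a culture cannot be told.

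Values are TPM, a length-corrected transcript abundance that sums to a fixed total per library. The libraries were further scaled to each other, and "scaled TPM" means this level throughout. Log2 differences are on log2(scaled TPM + 1), which understates the change of low features. A feature was tested when its mean TPM was 1 or more, which 24 members passed. The other 5 were ATP8, Q0010, Q0017, Q0032 and Q0142. No read counts were used, so the depth behind these values is unknown.

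As background, the mitochondrial DNA of yeast encodes core subunits of the respiratory chain and of ATP synthase, 1 ribosomal protein, the rRNAs and the tRNAs. It is read by a single-subunit RNA polymerase, Rpo41, with its factor Mtf1, into long precursors that are cut, spliced and trimmed by nuclear-encoded proteins. Several introns of COX1 and COB carry frames for maturases, reverse transcriptases or homing endonucleases, some of them translated as fusions with the upstream exons. Cells that lose this DNA can live on fermentable sugar. In bulk RNA, fewer cells holding mitochondrial DNA and less mitochondrial RNA per cell cannot be told apart.

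The R64 reference genome (S288C, not the W303 background used here) has a mitochondrial chromosome of 85779 bases with 17.1% GC, against 38.3% in the nuclear genome. It annotates 22 of the 29 members, all on the + strand. The identifiers Q0010, Q0017, Q0032, Q0142, Q0143, Q0182 and Q0297 have no annotation in it and are given by identifier only. Transcription by Rpo41 is known to start at a conserved 9-base promoter, so the genome was searched on both strands for ATATAAGTA, which had 14 matches. In windows of 1000 bases before each annotated start, the motif lay on the gene's strand for 10 of 22 members (45.5%), which share starts and reduce to 5 of 14 different starts (35.7%). The same windows held it for 4 of 24 other mitochondrial genes (16.7%) and 99 of 6407 nuclear genes (1.55%). The nearest matches are printed for the members they precede, in genome order, because this is the known start signal of mitochondrial RNAs, with the motif in capitals and 10 bases on each side. The match before 15S rRNA ends 75 bases ahead of the annotated start, that before COX1 460 bases, those before OLI1 643 and 565 bases, that of 21S rRNA 0 bases and that before RPM1 272 bases, with a methionine tRNA gene in between. The match before COB lies 1653 bases ahead of it, with a glutamate tRNA gene in between.
15S rRNA, chrM:6452-6480, + strand: atttattattATATAAGTAataaataata
COX1 and its intron frames, chrM:13339-13367, + strand: ataagtattgATATAAGTAatagatataa
COB and its intron frames, chrM:34868-34896, + strand: aagaaatattATATAAGTAatatataaaa
OLI1, distal match, chrM:46061-46089, + strand: attaatattaATATAAGTAatatatatag
OLI1, proximal match, chrM:46139-46167, + strand: atacacatttATATAAGTAtatatatata
21S rRNA, chrM:57990-58018, + strand: attattatatATATAAGTAgtaaaaagta
RPM1, chrM:85004-85032, + strand: aagtaatataATATAAGTAttaatatata
No match lay within 1000 bases before ATP6, VAR1, COX2 or COX3, which says only that these letters are not in those windows. A match is a description of sequence and not a mapped start site.

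Plasmid markers were read first. SCC2 was at 12.8, 12.5 and 12.1 scaled TPM in empty_vector, 51.2, 93.2 and 12.4 in G1242V, 86.5, 99.6 and 90.2 in R787G and 120.1, 128 and 109 in WT libraries. The library labelled G1242V 3 thus had the SCC2 level of the empty_vector libraries, and the comparisons of the members in G1242V are given with and without it. HIS3, the plasmid marker, was at 3500.2, 2590.2 and 2423 scaled TPM in empty_vector, 2498, 1042 and 2779.8 in G1242V, 1049.7, 1353 and 872 in R787G and 900.0, 845 and 796 in WT libraries. By HIS3, G1242V libraries 1 and 3 were within the empty_vector range, and G1242V library 2 within that of R787G. Library 3 of empty_vector stood apart in the mitochondrial transcripts, and library 2 of R787G in some intron frames, as described after the group comparisons. All 5 MATa markers (MFA1, MFA2, STE2, BAR1, STE6) were above 0 in every library. The MATa receptor gene STE2 ranged from 108 to 125 scaled TPM, and the MATalpha genes STE3 and MF(ALPHA)2 from 4.93 to 6.47 and from 0 to 1.11. The other MATalpha markers, MF(ALPHA)1 and SAG1, ranged from 3.39 to 20.0 and from 22.2 to 30.6.

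The 29 members together held 1.92, 2.01 and 1.34% of all TPM in empty_vector, 2.43, 2.71 and 2.39% in G1242V, 2.50, 2.09 and 2.23% in R787G and 2.17, 2.01 and 2.12% in WT libraries. As means this was 1.75 ± 0.361% in empty_vector, 2.51 ± 0.172% in G1242V, 2.27 ± 0.207% in R787G and 2.10 ± 0.0807% in WT (SD, n = 3 each). The lowest value was that of empty_vector library 3 and the highest that of G1242V library 2. All G1242V libraries lay above all WT and all empty_vector libraries, while R787G overlapped WT. Exon frames made up 71.5 to 79.1% of the members' TPM per library, and intron frames 16.1 to 22.9%, the highest in empty_vector library 3. The 2 rRNAs held 0.675 to 3.87%. The libraries were depleted of ribosomal RNA with a yeast kit, so rRNA levels are those left after that step.

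**Figure D1:**
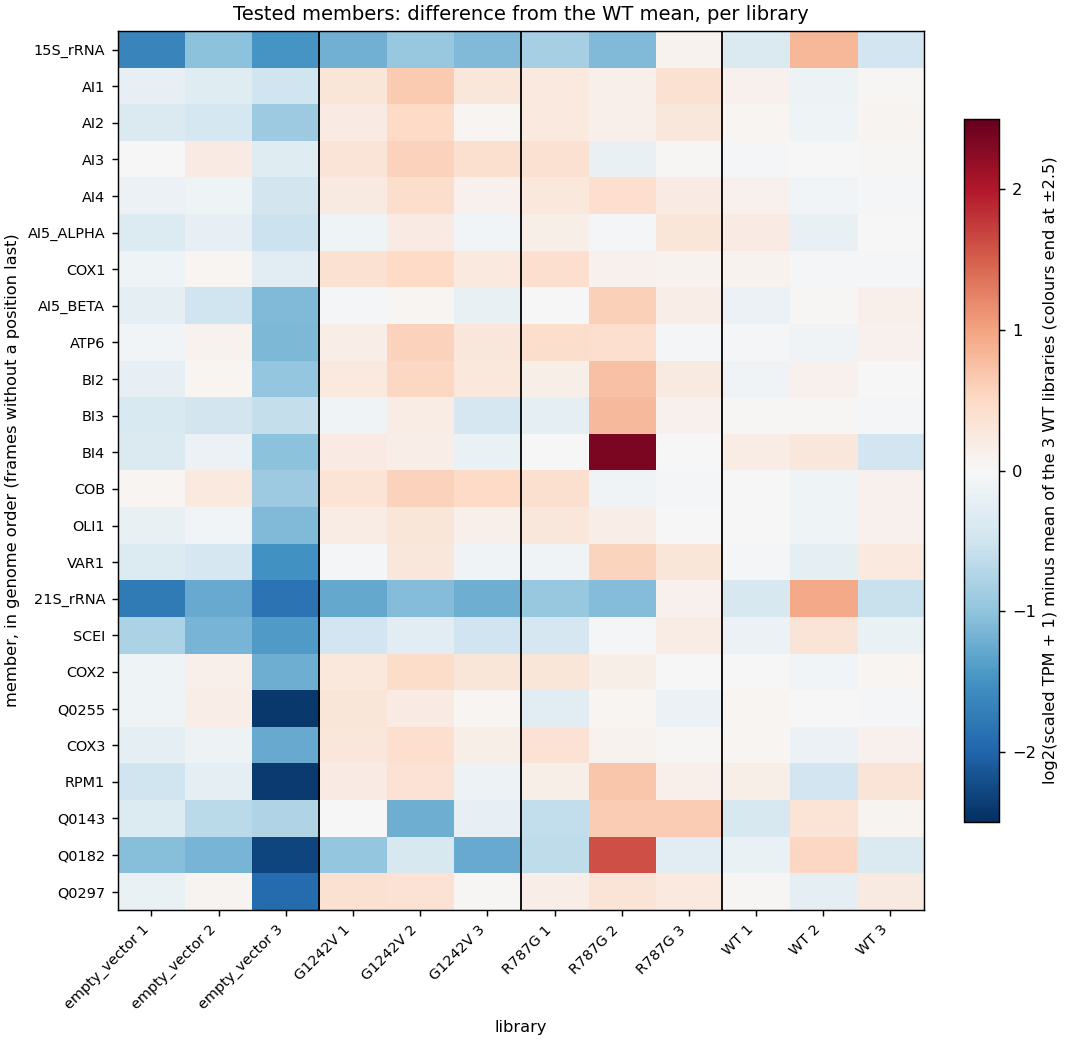
Heat map of the 24 tested members (rows, genome order) in the 12 libraries (columns), coloured by log2(scaled TPM + 1) minus the mean of the 3 WT libraries, from -2.5 to 2.5. Empty_vector library 3 is below the mean of empty_vector libraries 1 and 2 in all rows, most in Q0255, RPM1 and Q0297. BI4 and Q0182 are high in R787G library 2.

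Levels are compared between members on the length-corrected TPM scale. The highest was OLI1 (ATP9, the ring subunit of ATP synthase), with a mean of 7412 TPM over the 12 libraries, then COX1 with 3174 and AI1 with 2555. These kept that order in 12 of 12 libraries. COX3 (2103 TPM) and COB (1873 TPM) came next and did not separate, COX3 being higher in 8 of 12 libraries. COX2 (1435 TPM), AI2 (1084 TPM), Q0297 (720.3 TPM) and ATP6 (336 TPM) followed, each above the next in 12 of 12 libraries. The rRNAs 15S (137 TPM) and 21S (133 TPM) had means below all exon frames except VAR1 and ATP8 and did not separate from each other or from AI3 (147 TPM). OLI1 and ATP8 have spliced lengths of 231 and 147 bases, shorter than the average library size of 290 bp, so their levels per length are less certain than those of longer members.

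The exon frames of cytochrome c oxidase and of the bc1 complex were abundant in every library. COX1, the catalytic subunit of cytochrome c oxidase (Q0045, chrM:13818-26701, 8 exons), was at 2702, 3000.1 and 2404 scaled TPM in empty_vector, 3768, 4085 and 3424 in G1242V, 3877, 3111 and 3098 in R787G and 3074, 2843 and 2792 in WT libraries. All G1242V and R787G libraries were above all WT libraries, and empty_vector overlapped WT. COX2, another core subunit of the oxidase (Q0250, chrM:73758-74513), was at 1279.8, 1495 and 589.9 scaled TPM in empty_vector, 1661, 1902 and 1691 in G1242V, 1705, 1527 and 1391 in R787G and 1382, 1318 and 1432 in WT libraries. G1242V again lay above WT, while the only value under 1000 was that of empty_vector library 3. COX3, the remaining mitochondrial subunit (Q0275, chrM:79213-80022), was at 1781, 1907 and 868 scaled TPM in empty_vector, 2521, 2789 and 2319.6 in G1242V, 2666, 2223 and 2118 in R787G and 2153, 1874 and 2243 in WT libraries. G1242V also lay above WT for COX3, and R787G overlapped WT. COB, cytochrome b of the bc1 complex (Q0105, chrM:36540-43647, 6 exons), was at 1788, 2027 and 913 scaled TPM in empty_vector, 2177, 2557 and 2434 in G1242V, 2267, 1617 and 1659.6 in R787G and 1705, 1605 and 1861 in WT libraries. Empty_vector libraries 1 and 2 were within or above the range of WT for COB, and library 3 was the lowest of all 12.

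The ATP synthase frames and the ribosomal protein followed. OLI1 (Q0130, chrM:46723-46953) was at 6544, 7109 and 3455 scaled TPM in empty_vector, 8447, 9159 and 8084 in G1242V, 8962, 8312 and 7322 in R787G and 7455, 6872 and 7949 in WT libraries. All G1242V libraries exceeded all WT libraries, and R787G overlapped WT. ATP6, a subunit of the membrane part of ATP synthase (Q0085, chrM:28487-29266), was at 299.7, 332 and 143 scaled TPM in empty_vector, 354, 470.4 and 381 in G1242V, 429, 419 and 304 in R787G and 306, 297 and 341 in WT libraries. Empty_vector libraries 1 and 2 lay within the WT range of ATP6, and library 3 was the lowest. ATP8, a neighbouring small subunit (Q0080, chrM:27666-27812), was at 0, 0.951 and 0.404 scaled TPM in empty_vector, 0.480, 0 and 1.06 in G1242V, 0.535, 0 and 0.459 in R787G and 0.404, 0.505 and 0.999 in WT libraries, and was not tested. ATP8 was listed at 0 in 3 of the 12 libraries and its groups overlapped. VAR1, the mitochondrially encoded ribosomal protein (Q0140, chrM:48901-50097, 10.4% GC), was at 2.07, 1.93 and 0.371 scaled TPM in empty_vector, 2.76, 3.73 and 2.66 in G1242V, 2.68, 4.71 and 3.78 in R787G and 2.83, 2.33 and 3.64 in WT libraries. Every empty_vector library was below every WT library for VAR1, the only exon frame of which this held.

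**Figure D2:**
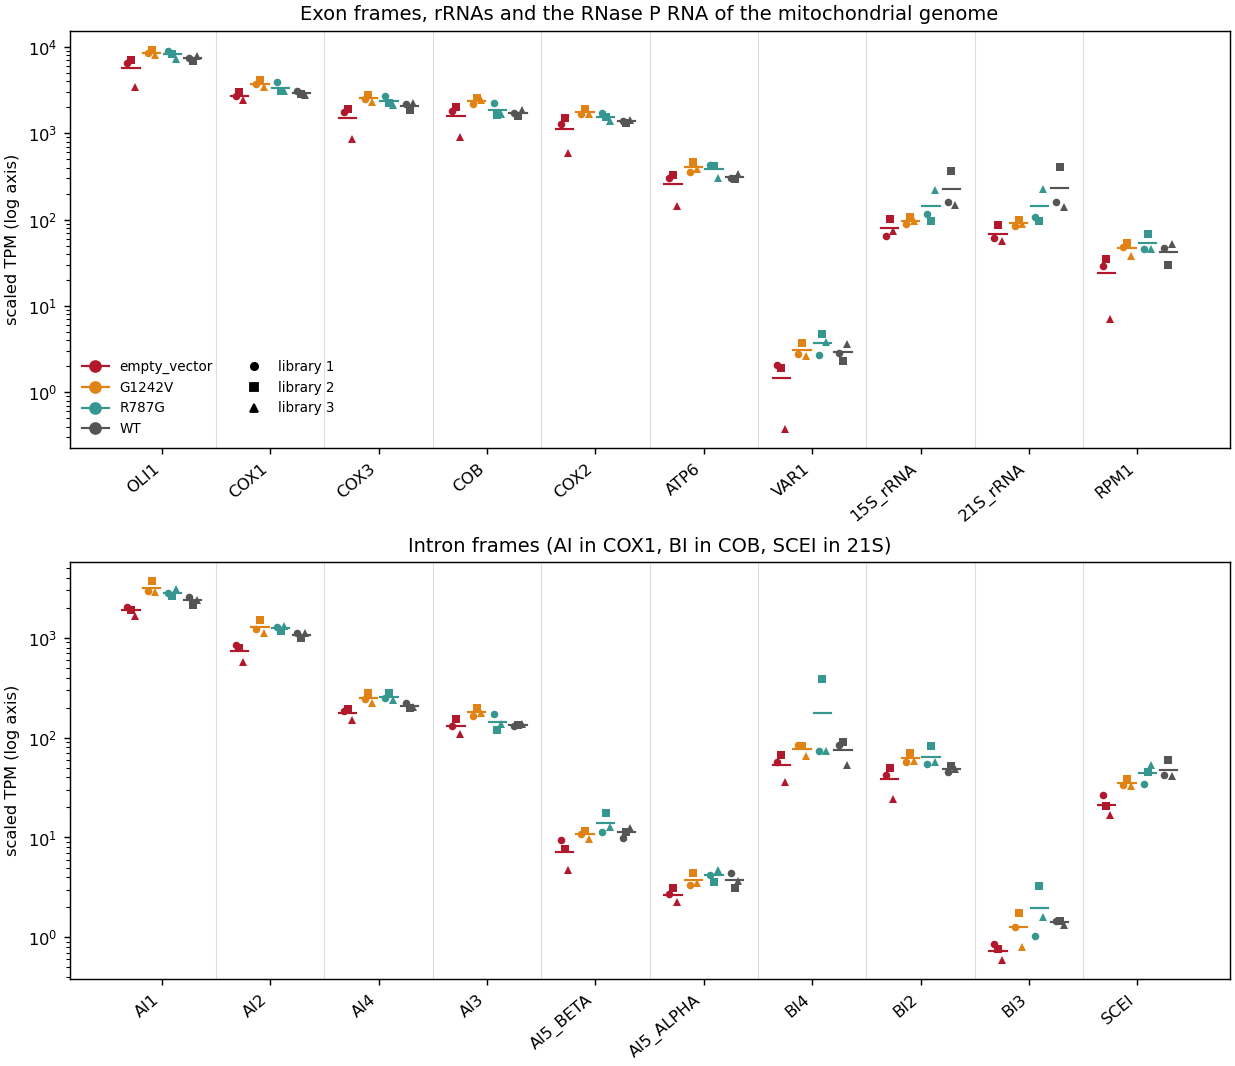
Scaled TPM (log axis) of 20 members in 2 panels, 1 point per library, in the order empty_vector, G1242V, R787G and WT, with a bar at the group mean. OLI1 is highest in every library, and the lowest point of each plotted member belongs to an empty_vector library.

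Both rRNAs were on average lowest in empty_vector and highest in WT. The small-subunit 15S rRNA (Q0020, chrM:6546-8194) was at 64.9, 101 and 73.6 scaled TPM in empty_vector, 89.2, 107 and 95.4 in G1242V, 116, 95.4 and 219 in R787G and 161, 368 and 148 in WT libraries. The large-subunit 21S rRNA (Q0158, chrM:58009-62447, 2 exons) was at 60.4, 86.4 and 57.1 scaled TPM in empty_vector, 84.7, 97.6 and 88.8 in G1242V, 107, 96.9 and 224 in R787G and 158, 403 and 140.2 in WT libraries. All empty_vector and all G1242V libraries were below all WT libraries for both rRNAs, and R787G overlapped WT through its library 3. WT library 2 was far above the other WT libraries for both. The ratio of 21S to 15S stayed within 0.777 and 1.09 over the 12 libraries, so the 2 rRNAs moved together. The nuclear-encoded cytoplasmic 25S rRNA, RDN25-1, a target of the depletion, was at 171, 202 and 186 scaled TPM in empty_vector, 54.1, 201 and 93.2 in G1242V, 217, 151 and 163 in R787G and 582, 979.8 and 775 in WT libraries. Thus cytoplasmic rRNA was also highest in WT, and the part of depletion in the mitochondrial rRNA levels was not tested. RPM1 (Q0285, chrM:85295-85777), which with a nuclear-encoded protein trims tRNA 5′ ends, was at 29.1, 35.3 and 7.10 scaled TPM in empty_vector, 48.1, 53.3 and 37.9 in G1242V, 46.2, 67.9 and 45.5 in R787G and 46.2, 29.6 and 51.7 in WT libraries. Its groups overlapped except that all empty_vector libraries were below all R787G and all G1242V libraries.

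**Figure D3:**
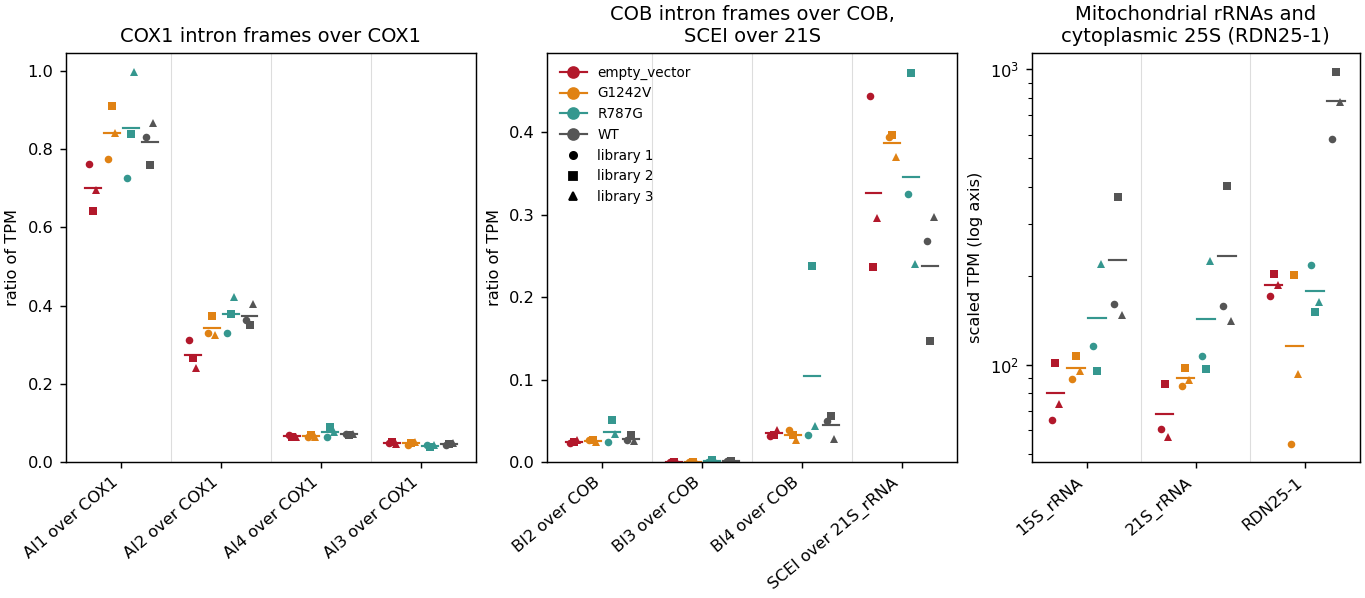
Left, the intron frames AI1, AI2, AI4 and AI3 over COX1; middle, COB intron frames over COB and SCEI over 21S rRNA; right, levels of 15S, 21S and cytoplasmic RDN25-1 rRNA in scaled TPM (log axis). Each point is a library and each bar a group mean, with the groups in the order empty_vector, G1242V, R787G and WT; the BI4 ratio of R787G library 2 is the only one above 0.2 for that frame, and all 3 rRNAs are highest in WT library 2.

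The intron frames overlap the gene that hosts them, and the table gives them levels of their own. Of the 50-base stretches of the spliced COX1 and COB frames, 59.3% and 63.9% also occur in another member. For the intron frames the share was 50.1% in AI5_ALPHA, 41.5% in AI4, 38.0% in BI4, 6.20% in AI2, 4.89% in AI1 and 0% in AI5_BETA and SCEI. The division of reads between an intron frame and its host is therefore uncertain, least for AI1, AI2, AI5_BETA and SCEI.

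The group II intron frames of COX1 were the most abundant. AI1 (Q0050, chrM:13818-16322), a reverse transcriptase and maturase, was at 2061, 1925 and 1668 scaled TPM in empty_vector, 2922, 3720.5 and 2875 in G1242V, 2811, 2604 and 3087 in R787G and 2551, 2157 and 2421 in WT libraries. AI2 (Q0055, chrM:13818-18830), of the same kind, was at 842, 799.7 and 576 scaled TPM in empty_vector, 1239, 1524 and 1115 in G1242V, 1283, 1175 and 1310.1 in R787G and 1117, 996 and 1130.2 in WT libraries. For both frames all empty_vector libraries lay below the other 9 libraries, and all R787G libraries lay above all WT libraries. AI3 (Q0060, chrM:13818-19996), which encodes a homing endonuclease, was at 132, 155 and 109 scaled TPM in empty_vector, 167, 200.1 and 177 in G1242V, 174, 118 and 137 in R787G and 132, 133 and 137 in WT libraries. AI4 (Q0065, chrM:13818-21935), an endonuclease with a latent maturase activity, was at 187, 194 and 152 scaled TPM in empty_vector, 243, 281 and 224 in G1242V, 251, 278 and 241 in R787G and 223, 199.5 and 203 in WT libraries. All empty_vector libraries were below all other libraries for AI4, but not for AI3. AI5_ALPHA (Q0070, chrM:13818-23167) was at 2.70, 3.09 and 2.25 scaled TPM in empty_vector, 3.37, 4.38 and 3.46 in G1242V, 4.22, 3.55 and 4.75 in R787G and 4.39, 3.10 and 3.65 in WT libraries. AI5_BETA (Q0075, chrM:24156-25255) was at 9.34, 7.61 and 4.70 scaled TPM in empty_vector, 10.8, 11.7 and 9.70 in G1242V, 11.3, 17.5 and 12.7 in R787G and 9.97, 11.4 and 12.4 in WT libraries. These last frames of COX1 were low in every library, and all empty_vector libraries were below all WT libraries.

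The COB intron frames and the 21S intron frame had lower means than AI1 to AI4. BI2 (Q0110, chrM:36540-38579), a maturase frame, was at 41.8, 50.2 and 24.3 scaled TPM in empty_vector, 57.7, 69.9 and 58.3 in G1242V, 54.1, 81.6 and 56.7 in R787G and 45.4, 52.3 and 48.4 in WT libraries. BI3 (Q0115, chrM:36540-40265), also a maturase frame, was at 0.852, 0.761 and 0.590 scaled TPM in empty_vector, 1.28, 1.74 and 0.799 in G1242V, 1.03, 3.25 and 1.60 in R787G and 1.46, 1.46 and 1.34 in WT libraries. BI4 (Q0120, chrM:36540-42251), the maturase known to act on its own COB intron and on a COX1 intron, was at 57.2, 66.4 and 36.0 scaled TPM in empty_vector, 85.4, 82.8 and 65.3 in G1242V, 73.8, 384 and 73.6 in R787G and 84.1, 90.2 and 53.0 in WT libraries. The value of R787G library 2 was the highest of the 12 for each of these frames, and far above any other for BI4. SCEI (Q0160, chrM:61022-61729), the omega homing endonuclease inside the 21S intron, was at 26.8, 20.4 and 16.9 scaled TPM in empty_vector, 33.4, 38.7 and 32.9 in G1242V, 34.7, 45.7 and 53.9 in R787G and 42.3, 59.1 and 41.6 in WT libraries. All empty_vector libraries of SCEI were below all other libraries, and all G1242V libraries were below all WT libraries.

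Among the remaining frames, Q0297 was the most abundant, at 632, 743 and 185 scaled TPM in empty_vector, 916, 907 and 716 in G1242V, 795, 884 and 839.9 in R787G and 717, 591 and 826 in WT libraries. Its empty_vector library 3 held less than any other library by a wide margin, and the other groups overlapped WT. Q0255 (Q0255, chrM:74495-75984, 3 exons), whose first bases overlap the end of COX2, was at 6.25, 7.74 and 0.455 scaled TPM in empty_vector, 8.65, 7.93 and 7.04 in G1242V, 5.50, 7.01 and 6.05 in R787G and 7.08, 6.76 and 6.51 in WT libraries. Here too empty_vector library 3 was alone at the low end. Q0182, named after its values were seen, was at 3.10, 2.86 and 0.766 scaled TPM in empty_vector, 3.40, 5.53 and 2.62 in G1242V, 4.54, 25.4 and 6.18 in R787G and 6.72, 11.3 and 5.75 in WT libraries. Its highest value was that of R787G library 2. Q0143 was between 0 and 2.60 scaled TPM, and Q0010, Q0017, Q0032 and Q0142 had mean TPM under 1.

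Empty_vector was compared with WT to ask what loss of SCC2 without a replacing copy does to these RNAs. All 24 tested members had a log2 fold change below 0 (AI3 was at 0.065 in the TPM as deposited, unscaled), with a median of -0.52 against -0.0078 over all 6097 tested features. By limma with Benjamini-Hochberg adjustment, 1 of 24 members was called, SCEI, with a log2 fold change of -1.12 (SE 0.19, adjusted p = 0.0440); 1.51% of all features were called lower. The lowest values were -1.62 for 21S (SE 0.39, limma adjusted p = 0.0509), -1.51 for Q0182 (SE 0.53, limma adjusted p = 0.105) and -1.38 for 15S (SE 0.35, limma adjusted p = 0.0566). None of these passed the threshold. For 11 members every empty_vector library was below every WT library, where 18.4% of all features were so. They were both rRNAs, 7 of 10 tested intron frames, VAR1 and Q0182. The other tested exon frames had overlapping groups, at -0.11 for COX1, -0.21 for COB, -0.40 for COX2, -0.54 for COX3, -0.37 for ATP6 and -0.45 for OLI1. Among intron frames, AI2 was at -0.56, AI1 at -0.34 and AI3 at -0.035. The size of these values rested in part on empty_vector library 3. Without it the median was -0.25, and 0 of 24 members and 0 of all 6097 features were called. SCEI was at -0.98 (limma adjusted p = 0.0930), 21S at -1.51 and 15S at -1.34, and 5 members were above 0: AI3, ATP6, COB, COX2 and Q0255. COX1 was then at -0.027 and OLI1 at -0.12. Likewise 0 of all features, SCEI included, were called without empty_vector library 2 or any 1 of the WT libraries, and 24 features, SCEI among them, without empty_vector library 1, against 161 with all libraries. The log2 fold change of SCEI stayed between -1.29 and -0.96 over the 6 omissions. Without WT library 2, which was far above the other WT libraries for both rRNAs, 21S was at -1.14 and 15S at -0.97.

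**Figure D4:**
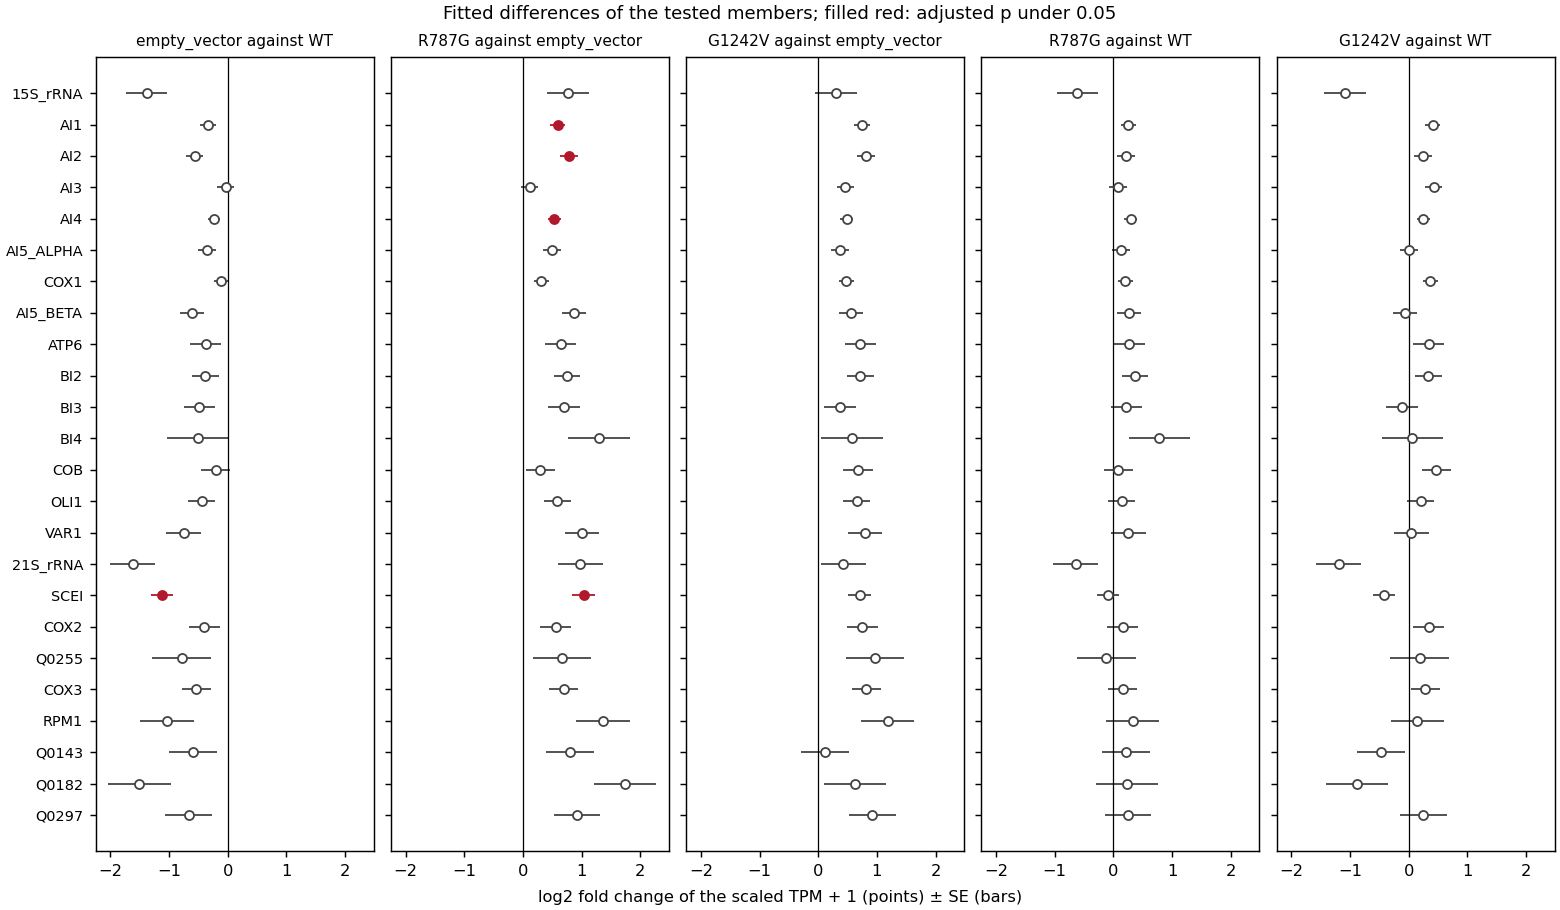
Log2 fold change of each tested member with its SE (bars) in 5 comparisons: empty_vector against WT, R787G against empty_vector, G1242V against empty_vector, R787G against WT and G1242V against WT. Red filled points passed an adjusted p of 0.05 by limma with Benjamini-Hochberg adjustment: SCEI below 0 in empty_vector against WT, and AI1, AI2, AI4 and SCEI above 0 in R787G against empty_vector.

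R787G and G1242V were each set against empty_vector, which asks how cells with a mutant SCC2 plasmid differ from cells with none. These comparisons and those against WT share libraries, so their values are given side by side and not as separate evidence. In R787G against empty_vector all 24 members were above 0 (23 in the TPM as deposited), with a median of 0.73 against 0.0048 over all features. By limma with Benjamini-Hochberg adjustment 4 of 24 were called higher, where 1.74% of all features were called higher, and all 4 were intron frames. SCEI rose by 1.03 (SE 0.19, limma adjusted p = 0.0304), AI2 by 0.78 (SE 0.15, adjusted p = 0.0369), AI1 by 0.59 (SE 0.13, adjusted p = 0.0436) and AI4 by 0.53 (SE 0.11, adjusted p = 0.0369) on the log2 scale. AI5_BETA, at 0.87, narrowly missed the threshold (limma adjusted p = 0.0501). Every R787G library was above every empty_vector library for 17 members, where 12.5% of features were so. They included 9 of 10 tested intron frames and 4 of 7 tested exon frames, whose median was 0.59. Without empty_vector library 3 the median was 0.48 and 21 members were above 0, and without R787G library 2 the median was 0.59. The number of calls depended on single libraries, over all features as over the members. Without empty_vector library 1, 2 or 3 or R787G library 2 or 3, 0 members were called and 0 or 1 of all features, against 144 of all features with every library, and without R787G library 1 there were 6 members and 415 of all features. The log2 fold change of SCEI ran from 0.88 to 1.20 over these omissions and that of AI2 from 0.61 to 0.88.

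In G1242V against empty_vector all 24 members were again above 0, with a median of 0.67 against 0.0058 over all features. None was called by limma with Benjamini-Hochberg adjustment, 17 of 24 had an unadjusted p under 0.05, as had 1127 of all 6097 features, and 0.148% of all features were called. Every G1242V library was above every empty_vector library for 16 members, where 14.4% of features were so. These held all 7 tested exon frames, with a median of 0.72, and 8 of 10 tested intron frames, with a median of 0.56, but neither rRNA. COX1 was at 0.48 (SE 0.13, limma adjusted p = 0.129) and AI1 at 0.75 (SE 0.13, limma adjusted p = 0.0712). Without empty_vector library 3 the median was 0.33 with 24 members above 0, and without the library labelled G1242V 3 it was 0.72 with 23 above 0.

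Against WT no member passed the test in either mutant. All 7 tested exon frames had log2 fold changes above 0 in both mutants (VAR1 was at -0.074 in G1242V with quantile normalization), and both rRNAs were below 0. In R787G against WT 20 of 24 members were above 0, with a median of 0.21 against 0.0015 over all features. None was called by limma with Benjamini-Hochberg adjustment, as was the case for 0% of all features, and 1 member, AI4, had an unadjusted p under 0.05, as had 419 of all 6097 features (0.30, limma adjusted p = 0.614). Groups did not overlap for COX1, AI1, AI2, AI4 and BI2, all higher in R787G, which is 5 of 24 members where 7.35% of all features were so. The rRNAs were at -0.61 for 15S and -0.64 for 21S, with overlapping groups. In G1242V against WT 17 of 24 members were above 0 (16 in the TPM as deposited, 15 with quantile normalization), with a median of 0.20 against 0.0075 over all features. None was called by limma with Benjamini-Hochberg adjustment although 4.58% of all features were, and 7 of 24 had an unadjusted p under 0.05, as had 1640 of all 6097 features. For 10 members every G1242V library was above every WT library, where 20.8% of features were so. They were COX1, COB, COX2, COX3, ATP6, OLI1, AI1, AI3, AI4 and BI2. COX1 was at 0.37 (limma adjusted p = 0.103), COB at 0.47 (limma adjusted p = 0.247) and AI1 at 0.41 (limma adjusted p = 0.0897). For 4 members every G1242V library was below every WT library, where 19.6% of features were so. They were 15S at -1.08, 21S at -1.19, SCEI at -0.42 and Q0182 at -0.87. Without the library labelled G1242V 3 the median was 0.27 with 19 members above 0, and 0 members and 4 of all features were called. Without it COX1 was at 0.44, COB at 0.46, 15S at -1.07 and 21S at -1.18. When only the 2 groups were fitted, COX1, AI3, COB and COX2 were called in G1242V against WT, among 823 of all features.

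R787G set directly against G1242V had no called member, as was the case for 0% of all features, by limma with Benjamini-Hochberg adjustment. AI3 alone among the members had an unadjusted p under 0.05, as had 1228 of all 6097 features, at -0.35 (limma adjusted p = 0.219). There were 13 members above 0 and 11 below, with a median of 0.039 against -0.0029 over all features. Without the library labelled G1242V 3 there were 11 above 0 and the median was -0.019. Only Q0255 had groups that did not overlap, lower in R787G, where 12.5% of features were lower in this way.

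Empty_vector library 3 stood apart from the other empty_vector libraries along the mitochondrial genome. Its scaling factor, 1.19, was the highest of the 12 libraries, against 1.03 and 0.999 in libraries 1 and 2, which lowers its scaled TPM. On log2(scaled TPM + 1) all 24 tested members were lower in it than the mean of libraries 1 and 2. The median was -0.74, where the median of all features was 0.0049. The difference was over 0.5 for 14 members, against 354 of all 6097 features. It was smallest at 15S rRNA (-0.14), followed by BI3 (-0.18), Q0143 (-0.24), COX1 (-0.24), AI1 (-0.26), AI5_ALPHA (-0.26), AI4 (-0.32) and 21S rRNA (-0.33). BI3 and Q0143 were under 1 scaled TPM in every empty_vector library, so the added 1 shrinks their differences. In the TPM as deposited 15S was at 87.3 in library 3, between the 67.0 and 101 of libraries 1 and 2. COX1 was likewise at 2854, against 2791 and 2998, and AI1 at 1981, against 2128 and 1924. COX2 was at 700 there, against 1322 and 1494. COB (-1.06), OLI1 (-0.98), ATP6 (-1.14), COX3 (-1.09) and COX2 (-1.23) were about 1 log2 unit lower, and Q0297 (-1.88), RPM1 (-2.03) and Q0255 (-2.45) lower again. COX1 therefore held 21.3% of the members' TPM in library 3, against 14.6% and 14.9% in libraries 1 and 2.

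The exon frames shifted relative to COX1 in the same way. The ratio of COX2 to COX1 was 0.245 in library 3, against 0.474 and 0.498 in libraries 1 and 2. The ratio of OLI1 to COX1 was 1.44 in library 3, against 2.42 and 2.37 in libraries 1 and 2, and that of COB to COX1 was 0.380 in library 3, against 0.662 and 0.676 in libraries 1 and 2. Other measures moved with library 3. Nuclear features shorter than 300 bp were lower in it by a median of -0.26 (221 features). Those of 2400 bp or more were higher by 0.078 (852 features), and features under 35% GC were lower by -0.13 (257 features). SCR1, the short RNA of the signal recognition particle, held 7.07% of all TPM in library 3, against 11.4% and 12.1% in libraries 1 and 2. Nuclear features of 600 to 1200 bp were lower by a median of -0.037 (1814 features), with 10% of them below -0.35. The part of length, GC content or SCR1 in the mitochondrial values was not tested.

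**Figure D5:**
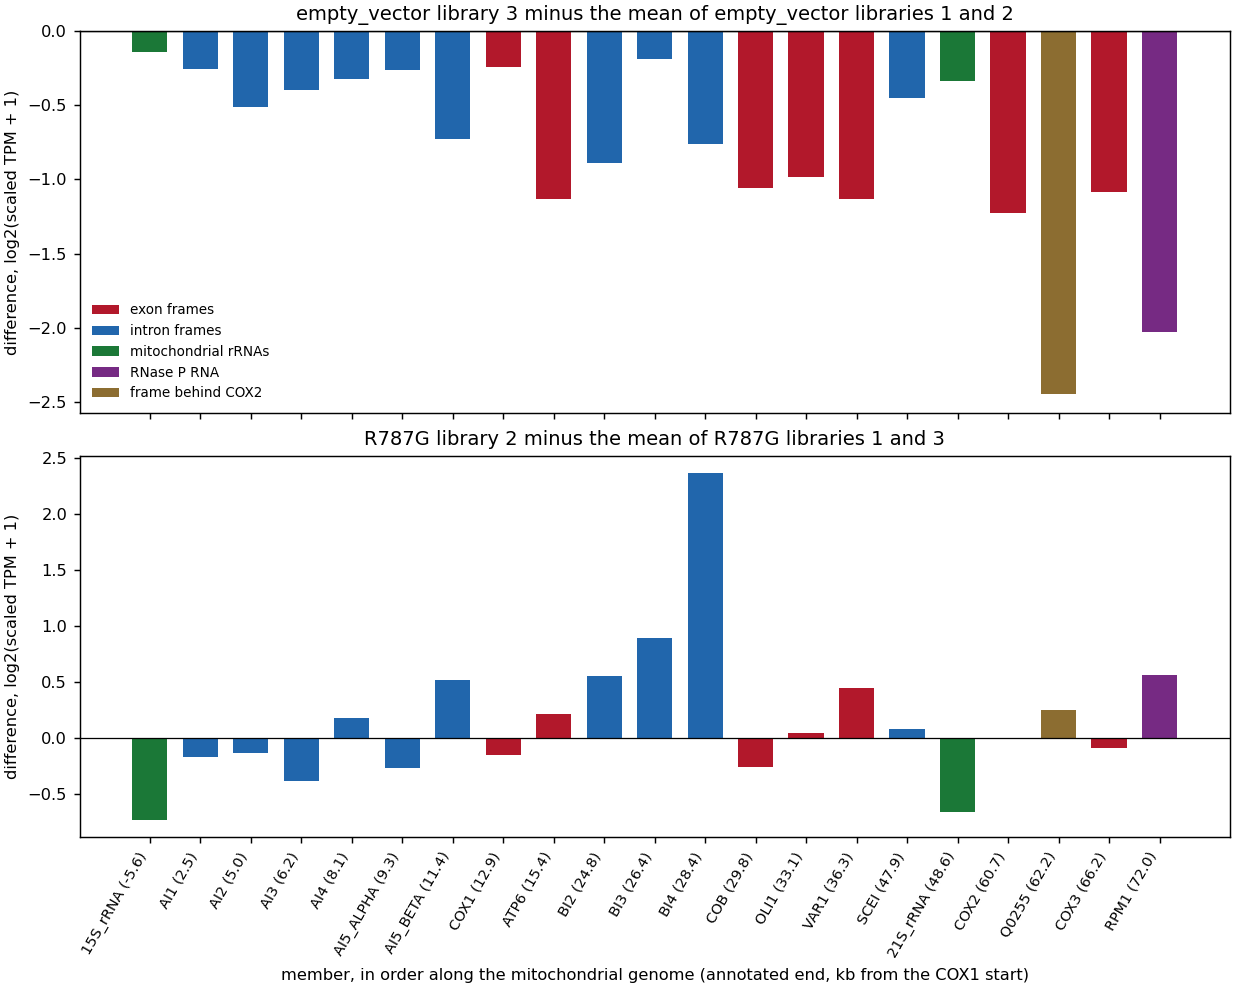
Bars of log2(scaled TPM + 1) for the tested members with a position in the reference, in genome order. Top, empty_vector library 3 minus the mean of empty_vector libraries 1 and 2. Bottom, R787G library 2 minus the mean of R787G libraries 1 and 3. Q0143, Q0182 and Q0297 have no position and are not shown. All bars of the top panel are below 0, from -0.14 at 15S rRNA to -2.45 at Q0255. BI4 stands out above 0 in the bottom panel.

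R787G library 2 stood apart in a different way. BI4 was 2.37 higher in it than the mean of R787G libraries 1 and 3 on the log2 scale, the largest such difference of all 6097 tested features in that library. Q0182 was 2.06 higher, BI3 0.89, RPM1 0.56, BI2 0.55 and AI5_BETA 0.51, while 15S rRNA was at -0.73 and 21S rRNA at -0.67. COB itself was not high, at 1617 scaled TPM in library 2, against 2267 and 1659.6 in libraries 1 and 3. The ratio of BI4 to COB was 0.237 in library 2, against 0.0268 to 0.0562 in the other 11 libraries. The log2 fold change of BI4 in R787G against WT was 0.79 with library 2 and -0.0028 without it. A stretch of 230 bases of BI4 also occurs letter for letter in the nuclear genome of the reference, on chromosome IX (chrIX:7015-7244) and chromosome X (chrX:6998-7227), and 9.69% of the 50-base stretches of BI4 occur more than once in the genome. Of the nuclear genes beside these copies, YJL225C was at 58.5 scaled TPM in R787G library 2, against 53.2 and 51.6 in R787G libraries 1 and 3, and reached 61.3 in empty_vector library 3. PAU1 and PAU14, which have identical values in the table, were at 12.04 scaled TPM in R787G library 2, against 9.30 and 8.81 in libraries 1 and 3, and YIL177C was listed at 0 in all 3. The part of these copies in the BI4 value was not tested.

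Intron frames were also read against their host, as ratios within a library, which do not depend on the scaling. Ratios over COX1 do depend on how reads were divided, since 59.3% of the 50-base stretches of COX1 occur in another member. The summed COX1 intron frames over COX1 were 1.20, 1.03 and 1.04 in empty_vector, 1.22, 1.41 and 1.29 in G1242V, 1.17, 1.35 and 1.55 in R787G and 1.31, 1.23 and 1.40 in WT libraries. As means they were 1.09 ± 0.0929 in empty_vector, 1.30 ± 0.0957 in G1242V, 1.36 ± 0.189 in R787G and 1.31 ± 0.0841 in WT (SD, n = 3 each). All empty_vector libraries were below all WT libraries, and both mutants overlapped WT. AI2 over COX1 was 0.312, 0.267 and 0.240 in empty_vector, 0.329, 0.373 and 0.326 in G1242V, 0.331, 0.378 and 0.423 in R787G and 0.363, 0.350 and 0.405 in WT libraries. For AI2 all empty_vector libraries were below all others, and this did not rest on library 3 alone. The other abundant COX1 intron frames were not laid out this way. AI1 over COX1 overlapped WT, at 0.763 in empty_vector library 1 against 0.759 in WT library 2. AI3 over COX1 also overlapped WT, with a mean of 0.0486 in empty_vector and 0.0462 in WT. AI4 over COX1 was below WT in all empty_vector libraries but overlapped G1242V and R787G. No p is given for these ratios, since the smallest that exact permutation of 3 against 3 libraries allows is 0.1. SCEI over 21S rRNA had another layout, at 0.444, 0.237 and 0.296 in empty_vector, 0.394, 0.397 and 0.370 in G1242V, 0.325, 0.472 and 0.240 in R787G and 0.268, 0.147 and 0.297 in WT libraries. Empty_vector overlapped WT here. In G1242V all libraries were above all WT libraries. The depletion of rRNA enters this ratio through 21S.

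Nuclear genes that make, process or translate mitochondrial RNA were also compared with WT. They were 63 tested genes in 4 lists: transcription and DNA maintenance, splicing and decay, translational activators, and rRNA and tRNA processing. In empty_vector against WT 0 of 63 were called by limma, where 161 of all 6097 features were. An unadjusted p under 0.05 was found for 17 of 63 and for 1747 of all 6097 features. The median log2 fold change was -0.038 with 22 above 0. The smallest limma adjusted p there was that of MSS116, a helicase that aids mitochondrial splicing, at -0.25 (adjusted p = 0.0840). In R787G against WT 0 were called by limma and 0 had an unadjusted p under 0.05, with a median of 0.0016. Of all 6097 features 0 were called there and 419 had an unadjusted p under 0.05. In G1242V against WT 18 had an unadjusted p under 0.05, as had 1640 of all 6097 features. By limma 1 was called, where 279 of all features were. This was MSS51, a translational activator of COX1, with 39.9, 35.3 and 36.5 scaled TPM in G1242V, against 49.5, 44.9 and 49.2 in WT libraries. It fell by 0.35 on log2(scaled TPM + 1) in G1242V (SE 0.084, limma adjusted p = 0.0402), and the call was lost when any 1 library of either group was left out. The 32 nuclear subunits of the same complexes had 0 limma calls in each comparison with WT and 0, 6 and 0 members with an unadjusted p under 0.05 in empty_vector, G1242V and R787G, with medians of -0.042 in empty_vector, 0.19 in G1242V and 0.00035 in R787G, and 25 of 32 above 0 in G1242V. The counts over all features are those given above for each comparison. Of 28 assembly factors 1 was called in empty_vector against WT, where 161 of all 6097 features were. This was MBA1, a receptor of mitochondrial ribosomes at the inner membrane. It was lower in empty_vector, with 24.8, 23.5 and 22.6 scaled TPM, against 28.5, 29.7 and 28.8 in WT libraries (-0.29, SE 0.060, limma adjusted p = 0.0491). Without empty_vector library 2 or 3 or any 1 WT library no feature at all was called in that comparison, MBA1 included, nor with no filter on low values, without the variance trend or with the replicate block.

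Over the 12 libraries, the non-member features whose log2 level followed the mean of the 8 exon frames most closely, among 5681 compared, were SYM1 (Pearson r = 0.968), snR42 (r = 0.967), QCR8 (r = 0.965), YKL077W (r = 0.962) and TMA7 (r = 0.954). Without empty_vector library 3 these values over 11 libraries were 0.868, 0.838, 0.886, 0.887 and 0.782 in the same order. The points share each library's scaling, and the ranking is a description without a test.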

How the data were processed

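RNA of 12 libraries in 4 groups of 3 was sequenced as 50 bp single reads after ribosomal RNA depletion with a stranded yeast kit, per the labels. The authors deposited TPM computed with RSEM, and per the submitters' processing notes bcl2fastq 2.17, STAR, edgeR and the sacCer3 genome were also used, with no role given. Whether counting used strand is not given in the sources used here. The TPM table sums to between 999546 and 999718 per library; it holds no counts, so depth is unknown. From 7036 features, 3 with shifted values were left out, as was 1 unnamed column.

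TPM was scaled by the median of ratios over 5421 features (mean TPM of 10 or more, no zero), with factors between 0.904 and 1.19. limma 3.58.1 was run on log2(scaled TPM + 1) of the 6097 features averaging at least 1 TPM (R 4.3.3, variance trend, two-sided, all 12 libraries, group as the only term; 8 residual and 3.20 prior degrees of freedom) with Benjamini-Hochberg adjustment per comparison and a threshold of 0.05. The fitting was tested on simulated data. Ratios and shares used Python 3.11.15 with pandas 2.3.3. Sequences and coordinates are from the R64 reference.

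The members and gene lists were chosen with earlier results of these data known. Every member is named or counted; frames named only by identifier have their values printed from a mean TPM of 10. From each nuclear list the genes called, or those of smallest p, could be named, and the nuclear features most like the exon frames by Pearson r. The marker list for rRNA and other short RNAs is used through RDN25-1 and SCR1. Alternatives were other pseudocounts, filters and scalings, a fit without the variance trend, fits of single pairs of groups, a replicate block, and leaving out each library. Same-numbered R787G and WT libraries deviated together (correlations of 0.199, 0.146 and 0.468), and with the block 0 members were called in R787G against WT, as without it.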

Additional observations from a re-analysis of the deposited data

How the results depend on the processing

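Members called by limma in empty_vector against WT, 1 in the chosen settings, were 0 with no filter on low values, 0 without the variance trend and 0 with the replicate block, settings in which 0 of all features were called, and 2 with a mean TPM of 5 or more or with TPM as deposited, 21S rRNA being added. Leaving out 1 library gave 0 to 1 member and 0 to 24 of all features, against 161 with every library. In R787G against empty_vector 4 were called, 0 when only the 2 groups were fitted (80 of all features), 3 with the replicate block (68 of all features), and 0 to 6 when 1 library was left out (0 to 415 of all features). In G1242V against empty_vector 1 was called without the variance trend (12 of all features), and in G1242V against WT 4 when only the 2 groups were fitted (823 of all features). The nuclear genes of mitochondrial gene expression in G1242V against WT are given with the count of all features called in brackets. There were 2 called with a mean TPM of 5 or more (303), 2 with quantile normalization (281) and 4 when only the 2 groups were fitted (823). There were 0 with TPM as deposited (57), 0 with the replicate block (207) and 0 without any 1 library (3 to 318). The causes were not tested.

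Log2 fold changes near 0 changed sign. With TPM as deposited AI3 in empty_vector against WT was at 0.065 and AI5_ALPHA in G1242V against WT at -0.0099. With quantile normalization AI5_ALPHA was at -0.15 and VAR1 at -0.074 in G1242V against WT. With 1 library left out, empty_vector against WT ran from -0.16 to 0.097 for AI3, -0.60 to 0.0060 for ATP6, -0.43 to 0.15 for COB, -0.66 to 0.0067 for COX2 and -1.26 to 0.033 for Q0255. R787G against WT ran from -0.071 to 0.21 for AI3, -0.071 to 0.17 for COB, -0.23 to 0.075 for SCEI, -0.075 to 0.46 for BI3, -0.0028 to 1.18 for BI4 and -0.45 to 0.67 for Q0182. G1242V against WT ran from -0.087 to 0.11 for AI5_ALPHA, -0.073 to 0.17 for VAR1, -0.17 to 0.21 for BI4, -0.14 to 0.0059 for AI5_BETA, -0.26 to 0.048 for BI3 and -0.087 to 0.31 for RPM1.

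Outside R787G and WT, 5 of 15 same-number pairs had deviations correlated above 0.1, the highest being 0.303 for library 2 of empty_vector and of WT. Of all 12 libraries 6 correlated best with their own number. Whether the replicate numbers pair the libraries cannot be told from these values. In TPM as deposited the median of all features was -0.15 in R787G against empty_vector and -0.11 in G1242V against empty_vector, each near 0 after scaling. Depth is unknown, so low members such as ATP8, BI3 and VAR1 have no counting interval.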
